A study of Mus musculus with 27 samples.

Results

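Kirrel2, Kirrel3, Pcdh10 and Efna5 encode cell surface molecules with which axons of olfactory sensory neurons sort themselves on the way to the olfactory bulb. All probes annotated to these genes were taken, which gave 5 of the 29922 probes of the array and 4 of 16637 named genes. Kirrel2, Kirrel3 and Pcdh10 had 1 probe each and Efna5 had 2. Transcripts were measured in whole olfactory mucosa of female FVB mice aged 25 days, after unilateral naris occlusion, in which 1 nostril is cauterized shut. The occluded group is the mucosa behind the closed nostril, the open group is the mucosa of the other side of the same mice, and the normal group is mucosa of other mice that received a sham cautery on the muzzle. Each group had 3 biological replicates with 3 arrays each, 27 arrays in all. The labels read here state neither the age at closure nor whether mice were pooled, so p-values measure the spread between these samples.

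An olfactory sensory neuron expresses 1 odorant receptor, and axons of neurons with the same receptor meet in the same glomerulus of the bulb. Kirrel2 and Kirrel3 are immunoglobulin-superfamily proteins that each bind their own kind on a neighbouring axon. Pcdh10, also called OL-protocadherin, is a homophilic adhesion molecule of the cadherin superfamily. Efna5 is a membrane-anchored ephrin ligand that acts on EphA receptors, mostly as a repellent. In olfactory neurons the levels of such molecules are known to depend on the receptor and on odor- and cAMP-driven activity, with Kirrel2 favoured by activity and Kirrel3 and ephrin-A5 favoured by its absence.

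The promoter windows of 3 member genes are shown, those of the members with an entry in the promoter table, to show whether they hold the response element of the cAMP signal. Each is the 250 bases before the gene's start, from RefSeq on the GRCm38.p6 build, written 5′ to 3′ on the gene's strand. The window of Kirrel2 is chr7:30457516-30457765 on the minus strand, that of Pcdh10 is chr3:45378148-45378397 on the plus strand and that of Efna5 is chr17:62881318-62881567 on the minus strand. Capitals mark matches to any of the 3 motifs searched on both strands, which are the cAMP response element TGACGTCA, its core TGACG, contained in the former, and the core CCCNNGGG of sites for the Olf/Ebf factors of olfactory neurons.
Kirrel2: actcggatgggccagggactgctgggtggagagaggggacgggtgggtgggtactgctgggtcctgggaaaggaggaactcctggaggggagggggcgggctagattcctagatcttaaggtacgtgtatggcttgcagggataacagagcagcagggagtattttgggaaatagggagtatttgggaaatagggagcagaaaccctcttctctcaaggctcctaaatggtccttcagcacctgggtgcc
Pcdh10: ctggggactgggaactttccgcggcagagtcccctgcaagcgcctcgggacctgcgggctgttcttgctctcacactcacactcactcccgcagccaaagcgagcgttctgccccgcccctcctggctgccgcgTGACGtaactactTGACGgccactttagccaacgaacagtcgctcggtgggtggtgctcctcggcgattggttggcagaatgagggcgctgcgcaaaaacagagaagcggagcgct
Efna5: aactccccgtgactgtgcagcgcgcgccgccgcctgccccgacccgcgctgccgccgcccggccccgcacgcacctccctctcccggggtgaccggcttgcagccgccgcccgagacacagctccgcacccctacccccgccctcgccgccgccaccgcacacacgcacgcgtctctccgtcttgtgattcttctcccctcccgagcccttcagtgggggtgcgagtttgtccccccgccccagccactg
The Pcdh10 window held the core TGACG at 2 places, from base -116 to -112 and from base -103 to -99 relative to the gene's start. The windows of Kirrel2 and Efna5 held no match to these letters. Of 32851 windows of the same length, 17.8% held the core, 1.55% the full element and 11.8% the Olf/Ebf core. The windows of Pcdh10 and Efna5 were rich in G and C (63.2% and 74.8%, against a median of 52.4% over all windows), and that of Kirrel2 had 56.4%.

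On the occluded side the adhesion genes Kirrel2 and Pcdh10 fell, while Kirrel3 and both probes of Efna5 had higher values that did not pass the test over all probes. The open side and the normal mucosa lay close together for every member probe. With p adjusted over all 29922 probes in limma, a linear model fitted to each probe with a shared prior for the variance, 2 of 5 member probes passed at 0.05 in occluded vs open, where 0.221% of all probes did. Both calls rest on the fit with the mouse as a random block: with the pair fixed as a replicate block, no member and no other probe passed (adjusted p = 0.45 for Kirrel2 and 0.46 for Pcdh10, limma). In occluded vs open 5 of 5 had an unadjusted p under 0.05, against 6.19% of all probes. The values are log2 probe intensities, normalized between arrays and averaged over the 3 arrays of a biological replicate. A probe's level depends on its sequence, so levels are compared between groups and not between probes. None of the member probes lay below the noise limit of its array (3 times the root mean square of that array's values below 0) on any array.

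**Figure D1:**
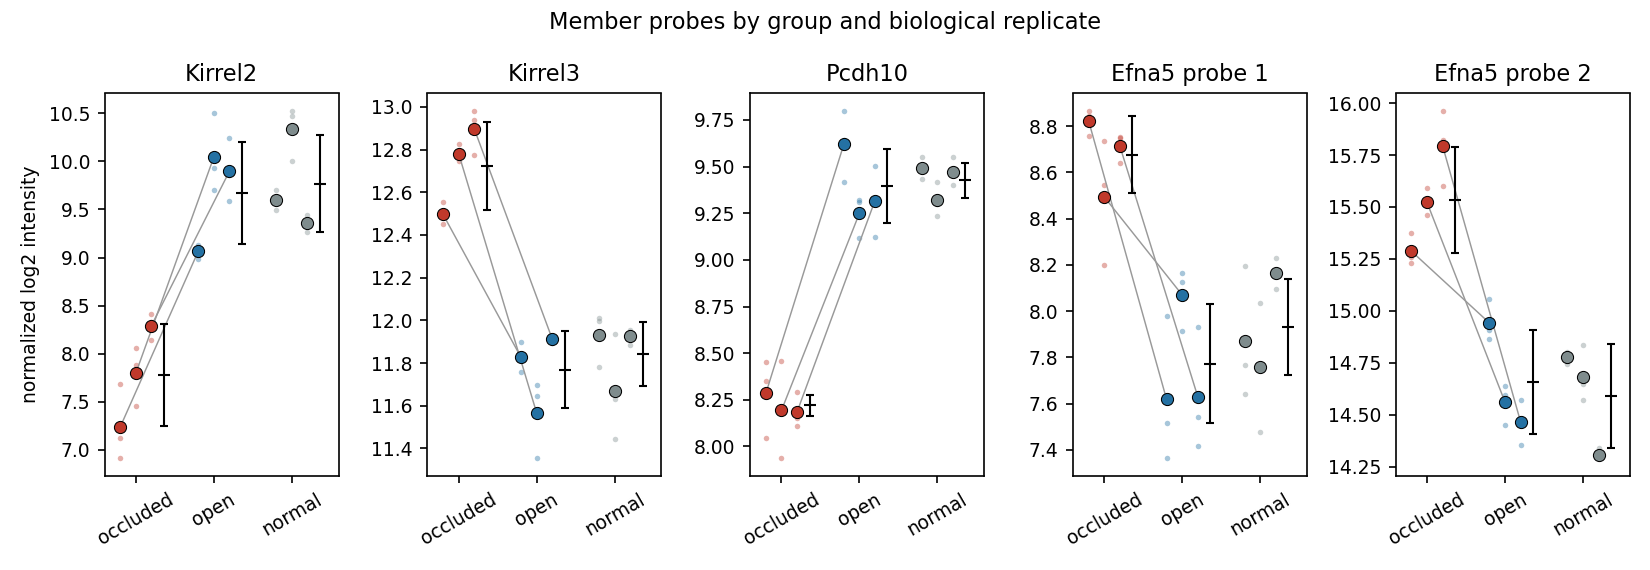
Normalized log2 intensity of the 5 member probes in occluded (red), open (blue) and normal (grey) mucosa. Large points are biological replicates in the order 1 to 3, small points their 3 arrays, black bars the mean ± SD of 3 replicates, and grey lines join occluded and open replicates of the same number; each panel has its own scale. For Kirrel2 the occluded replicates lie between 7.24 and 8.29, below all open and normal replicates, and for Kirrel3 between 12.50 and 12.90, above all of them.

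Kirrel2 had the largest difference of the 5 probes. In the occluded replicates 1, 2 and 3 its log2 intensity was 7.24, 7.80 and 8.29, in the open replicates 9.07, 10.05 and 9.90, and in the normal replicates 9.60, 10.34 and 9.36. The occluded values thus lay below every open and every normal value, and open and normal overlapped. Kirrel2 fell by 1.89 ± 0.28 (SE) on the log2 scale from the open to the occluded side (limma adjusted p = 0.048), a 3.71-fold difference in the direction of less transcript on the occluded side. Within the pairs of equal number the occluded minus open difference was -1.83, -2.25 and -1.60. On the single arrays the highest occluded value was 8.41 and the lowest open value 8.99, so the arrays did not overlap either. In intensity units as deposited, the 9 occluded arrays ran from 99.9 to 467, with a median of 218, and the 9 open arrays from 384 to 1667, with a median of 950. These deposited intensities, read before the normalization between arrays done here, overlap between the sides. The overlap was between occluded replicate 3 (361 to 467) and open replicate 1 (384 to 415), and its cause was not tested. Within each replicate number the deposited intensities of the sides did not overlap. The call of Kirrel2 was lost in 17 of 20 other ways of processing the data, among them the fits with a fixed replicate block and each of the 6 fits that left out 1 pair of equal number or 1 normal replicate, with a difference between -2.04 and -1.72 in those 6.

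Kirrel3, the relative of Kirrel2, had the opposite sign. Its log2 intensity was 12.50, 12.78 and 12.90 in the occluded replicates 1 to 3, 11.83, 11.57 and 11.91 in the open ones and 11.93, 11.67 and 11.93 in the normal ones. All 3 occluded values lay above all open and normal values. The occluded minus open difference was 0.96 ± 0.15 (SE, limma adjusted p = 0.064), which did not pass, with a 95% interval of 0.60 to 1.31. The pairs differed by 0.67, 1.21 and 0.98. The lowest of 9 occluded arrays had a log2 intensity of 12.45 and the highest of 9 open arrays 11.92. Repeat arrays of this probe were close, with a median SD of 0.05 within the occluded replicates, against 0.31 for Kirrel2. Within the open replicates it was 0.07 against 0.33, but within the normal replicates 0.13 against 0.10. Kirrel3 passed in 4 of 20 alternatives, and its difference stayed between 0.83 and 1.10 in all 20.

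The contrast between the 2 relatives can be read within each replicate as the log2 intensity of Kirrel2 minus that of Kirrel3, whose absolute size has no meaning because the probes differ. This value was -4.95 ± 0.33 (SD, n = 3) in occluded, -2.10 ± 0.62 in open and -2.08 ± 0.65 in normal mucosa. The occluded replicates lay between -5.26 and -4.60, the open ones between -2.76 and -1.52 and the normal ones between -2.56 and -1.34. The means differed by -2.85 between occluded and open, by -2.87 between occluded and normal and by -0.024 between open and normal mucosa.

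Pcdh10 had the smallest p of the member probes, at rank 24 of 29922 in occluded vs open. Its log2 intensity was 8.28, 8.19 and 8.18 in the occluded replicates, 9.62, 9.25 and 9.32 in the open replicates and 9.49, 9.32 and 9.47 in the normal replicates. The 3 occluded values were nearly equal and lay below all others, and open and normal values overlapped. The single occluded arrays ran from 7.94 to 8.46, so these means lay closer together than the arrays behind them. Pcdh10 fell by 1.18 ± 0.13 (SE) on the log2 scale on the occluded side (limma adjusted p = 0.017), which is 2.26-fold. The differences within pairs were -1.34, -1.06 and -1.13. On single arrays the highest occluded value was 8.46 and the lowest open value 9.12. The deposited intensities did not overlap on this probe even before normalization between arrays, with 223 to 447 on the 9 occluded and 557 to 828 on the 9 open arrays. The call of Pcdh10 was lost in 11 of 20 alternatives, those with a fixed replicate block included. It held in the fits without a normal replicate (3 of these 6 fits) and was lost in the fits without replicate 1, 2 or 3 of both sides, with a difference between -1.23 and -1.10 over the 6.

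Efna5, the repellent ligand, was read by 2 probes that gave the same sign. The first probe had log2 intensities of 8.82, 8.49 and 8.71 in occluded, 7.62, 8.07 and 7.63 in open and 7.87, 7.76 and 8.16 in normal replicates. The second, much brighter probe had 15.29, 15.52 and 15.79 in occluded, 14.94, 14.56 and 14.47 in open and 14.78, 14.68 and 14.31 in normal replicates. On both probes the 3 occluded values lay above all open and normal values. The occluded minus open difference was 0.90 ± 0.18 (SE, limma adjusted p = 0.15) on the first probe and 0.88 ± 0.20 (adjusted p = 0.22) on the second, and neither passed. The pairs differed by 1.20, 0.42 and 1.08 on the first probe and by 0.35, 0.96 and 1.33 on the second, so the pair with the smallest difference was not the same on both. On 1 of 9 occluded arrays the second probe was saturated (within 0.5% of that array's highest value), which makes its occluded level a lower limit. The array ranges of the first probe met closely, with a lowest occluded value of 8.20, a highest open value of 8.17 and a highest normal value of 8.23.

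**Figure D2:**
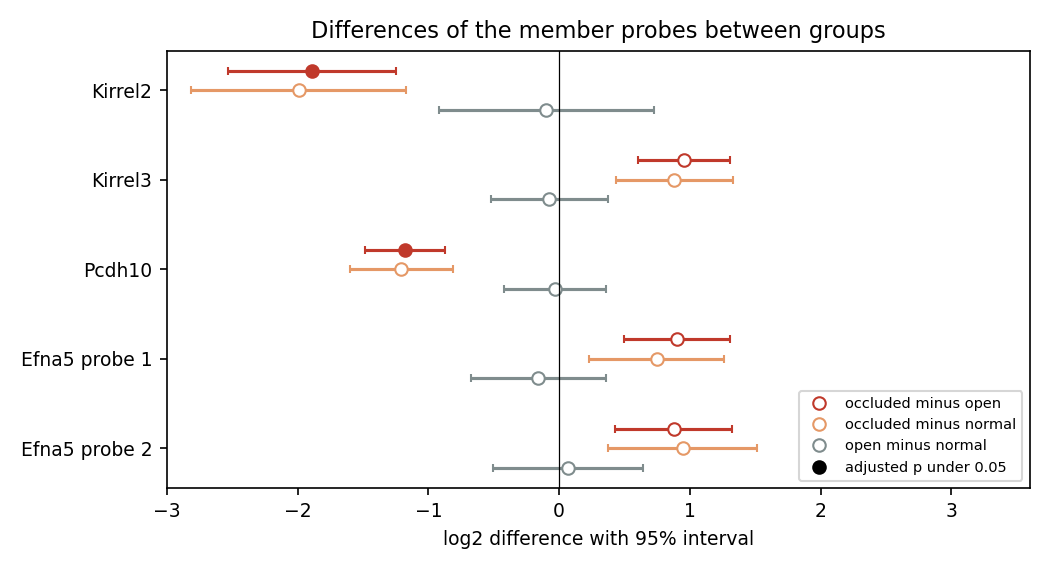
Log2 difference of each member probe in the 3 comparisons, with its 95% interval from limma; filled points passed an adjusted p of 0.05 over all probes. In occluded minus open, Kirrel2 at -1.89 and Pcdh10 at -1.18 are filled, Kirrel3 lies at 0.96 and the Efna5 probes at 0.90 and 0.88, and all 5 open minus normal intervals include 0.

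Occluded mucosa was next compared with the normal mucosa of other mice. It shares the occluded samples with the first, so it is no independent repeat of it. Kirrel2 differed by -1.99 ± 0.36 (SE, limma adjusted p = 0.28) and Pcdh10 by -1.21 ± 0.17 (adjusted p = 0.18). Kirrel3 differed by 0.88 ± 0.20 (adjusted p = 0.53), and the Efna5 probes by 0.75 ± 0.23 (adjusted p = 1.0) and 0.94 ± 0.25 (adjusted p = 0.85). None of the 5 passed, where 0.00668% of all probes (2 probes) did, and 5 of 5 had an unadjusted p under 0.05, against 2.88% of all probes. Pcdh10 stood at rank 11 of 29922 by p and passed in 3 of 19 alternatives. In size, each difference was close to that against the open side.

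The last comparison, open side against normal mucosa, addresses whether the ventilated side of an occluded mouse differs from a mouse without occlusion. No member probe passed in limma, nor did any of the 29922 probes (0%), of which 477 had an unadjusted p under 0.05 (1.59%), none of them a member. Kirrel2 differed by -0.10 with a 95% interval of -0.92 to 0.72, and Kirrel3 by -0.07 with an interval of -0.52 to 0.38. Pcdh10 differed by -0.03 (-0.42 to 0.36), the first Efna5 probe by -0.16 (-0.68 to 0.36) and the second by 0.07 (-0.51 to 0.64). Differences of the size seen on the occluded side, -1.89 for Kirrel2, 0.96 for Kirrel3 and -1.18 for Pcdh10, lie outside these intervals. The sign of each of these 5 small differences turned under at least 1 other setting.

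For Kirrel2 and Pcdh10 the occluded group was lowest and the open and normal groups did not differ beyond their spread. For Kirrel3 and Efna5 the occluded group was highest, again with open and normal within their spread. The values of the groups did not overlap on 5 of 5 member probes in occluded vs open, against 6.7% of all probes, and on 5 of 5 in occluded vs normal, against 6.67%. In open vs normal they overlapped on all 5 (4.27% of all probes had no overlap). On all 5 the occluded values lay outside the range of the open and normal values together, as on 2.25% of all probes. These counts, and those by unadjusted p above, are descriptions, since the members were chosen with earlier results of these data known. Efna5 counts with 2 probes, and the comparisons share the occluded samples.

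**Figure D3:**
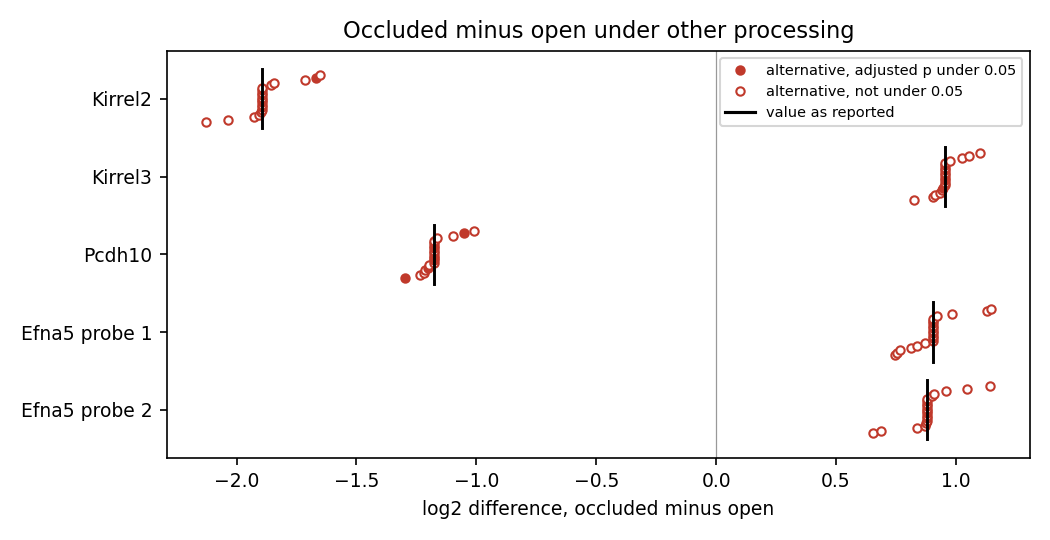
Occluded minus open log2 difference of each member probe under 20 other ways of processing (circles; filled where the adjusted p was under 0.05) beside the value as reported (black line). No circle crosses 0; Kirrel2 ranges from -2.13 to -1.65, Kirrel3 from 0.83 to 1.10, Pcdh10 from -1.30 to -1.01 and the Efna5 probes from 0.74 to 1.14 and from 0.65 to 1.14.

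The next question was whether relatives and partners of the members differed too. In the lists a gene is said to have risen or fallen only where its adjusted p was under 0.05, so the others may still differ. Lists are described by the probe with the highest mean of each gene, beside all 16637 named genes, of which 34 rose and 10 fell in occluded vs open with a median log2 difference of 0.0079. Of 10 listed genes of the Kirrel family and its partners, 8 were measured. Of these Kirrel2 fell and none rose, with a median of -0.30 and 6 of 8 below 0. Kirrel, the founding member of the family, differed by 0.12 ± 0.15 (SE, limma adjusted p = 0.997). Nphs1 encodes nephrin, a binding partner of Kirrel proteins in the kidney, and is the next protein-coding gene beside Kirrel2 on chromosome 7 in RefSeq. Its log2 intensity was 8.07, 7.75 and 7.64 in occluded, 8.28, 8.26 and 8.37 in open and 8.44, 8.36 and 8.31 in normal replicates. The occluded replicates of Nphs1 lay below the others, as those of Kirrel2 did, but the difference of -0.48 ± 0.14 was smaller and did not pass (limma adjusted p = 0.47).

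All 14 ephrin-A ligands and EphA receptors on the list were measured, and none rose or fell (median -0.0052, 6 above 0 and 8 below). The smallest p was that of Epha7, a receptor for ephrin-A ligands. Its brighter probe had log2 intensities of 7.03, 6.73 and 6.03 in occluded, 8.01, 7.83 and 7.85 in open and 8.03, 8.14 and 8.24 in normal replicates. Its dimmer probe had 2.97, 3.01 and 3.48 in occluded, 4.52, 4.38 and 4.96 in open and 4.28, 4.88 and 3.86 in normal replicates, and lay below the noise limit on 4 of 9 occluded and 4 of 9 normal arrays, so no size is given for it. On both probes the occluded replicates were below all others. The occluded minus open difference of the brighter probe was -1.30 ± 0.21 (SE, limma adjusted p = 0.059), which did not pass and had the sign opposite to that of the ligand Efna5. Efna4 and Efna3, other ephrin-A ligands, differed by 0.57 ± 0.16 (adjusted p = 0.40) and 0.58 ± 0.26 (adjusted p = 0.81). Epha5, the receptor whose distribution among olfactory axons is known to be complementary to that of ephrin-A5, is named outside the rule for named genes. It differed by 0.22 ± 0.32 (adjusted p = 0.997), with occluded replicates from 5.43 to 6.58, open ones from 5.36 to 6.45 and normal ones from 5.10 to 6.20, which overlapped.

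Of 10 delta-protocadherins, the family of Pcdh10, 9 were measured. Pcdh10 fell, none rose, and the median was -0.01 with 3 of 9 above 0 and 6 below. The values of the other 8 lay between -0.39 for Pcdh8 and 0.37 for Pcdh17, which was below the noise limit on 26 of 27 arrays. A dim probe of Pcdh9, below that limit on 4 of 27 arrays, differed by 1.44 ± 0.29 (limma adjusted p = 0.16), while its brighter probes differed by 0.20 and 0.36. A list of 21 other sorting and guidance molecules of olfactory axons, all measured, had no member that rose or fell (median -0.08). On the brightest probe of each gene, 0 of 21 had an unadjusted p under 0.05 in limma. The smallest p-values on these probes were those of the repellent gene Sema3a, the axonal adhesion molecule gene Cntn4 and the semaphorin receptor gene Plxna1. They differed by -0.61 ± 0.29 (limma adjusted p = 0.84), -0.27 ± 0.14 (adjusted p = 0.88) and -0.25 ± 0.15 (adjusted p = 0.93). A dimmer probe of Cntn4, below the noise limit on 4 of 9 occluded arrays, differed by -1.24 ± 0.25 (limma unadjusted p = 0.00097, adjusted p = 0.16). The probes of Cntn4 thus disagreed in size. A dimmer probe of Sema7a, below that limit on 1 of 27 arrays, differed by -0.99 ± 0.43 (limma unadjusted p = 0.048, adjusted p = 0.80).

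**Figure D4:**
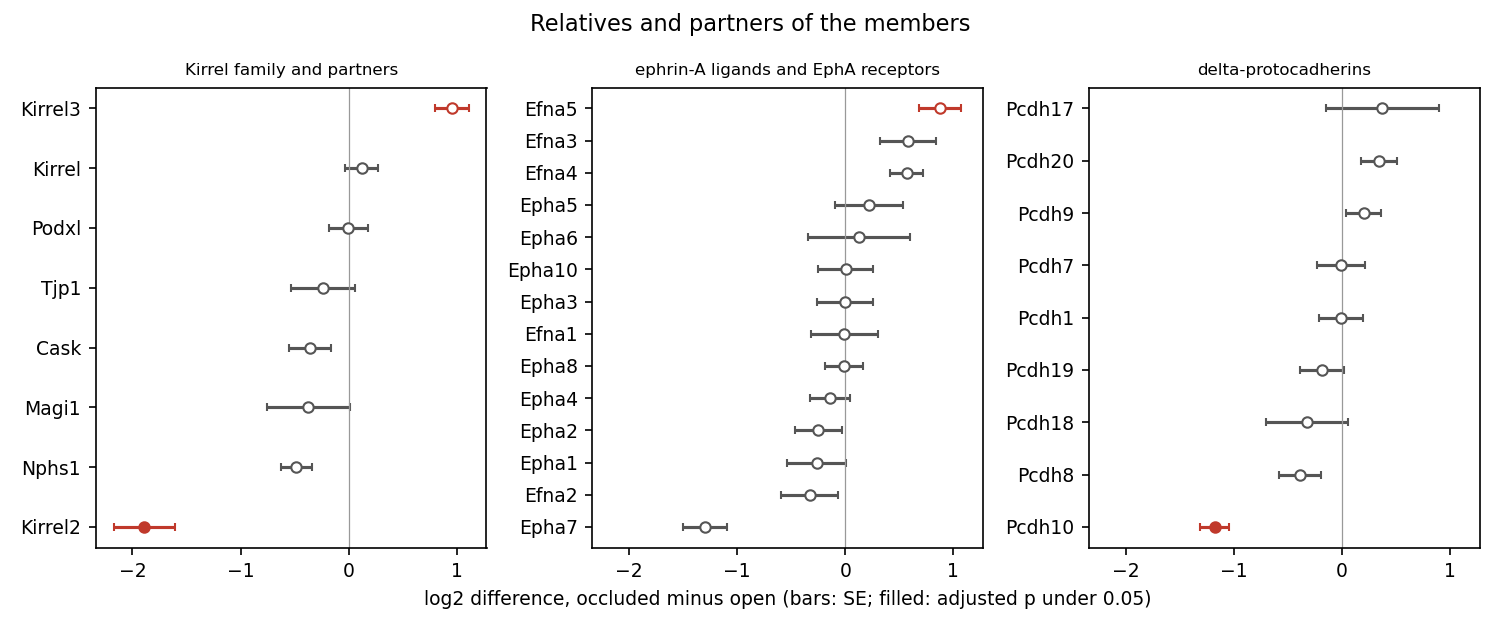
Occluded minus open log2 difference ± SE of the brightest probe of each measured gene in 3 lists: the Kirrel family and partners (8 genes), ephrin-A ligands and EphA receptors (14) and delta-protocadherins (9). Members are red and filled points passed an adjusted p of 0.05; only Kirrel2 at -1.89 and Pcdh10 at -1.18 are filled, and Epha7 at -1.30 lies opposite to Efna5 at 0.88.

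Levels of such sorting molecules are known to depend on cAMP-driven activity. In this signal Adcy3 makes cAMP downstream of the G protein Gnal, and cAMP opens the channel formed with Cnga2. The part of this signal in the members' differences was not tested. Of 9 listed genes of this signal 7 were measured. None rose or fell, and 7 of 7 lay above 0 in occluded vs open, with a median of 0.34. Of all 16637 named genes 8561 lay above 0. Further, dimmer probes gave -0.50 and 0.15 for Creb1, -0.17 for Gnas and 0.31 for Gnal, so not all probes shared the sign. The Creb1 probe at -0.50 lay below the noise limit on 7 of 27 arrays, and that of Gnas on 3. Cnga2 differed by 0.53 ± 0.17 (SE, limma adjusted p = 0.55; saturated on 3 of 27 arrays), Adcy3 by 0.34 ± 0.13 (adjusted p = 0.71) and Gnal by 0.47 ± 0.19 (adjusted p = 0.76). These genes are also markers of mature olfactory neurons.

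Markers of the cell types of the mucosa were read beside the members. The mean log2 intensity over 9 measured of 12 listed markers of mature olfactory neurons ran from 14.19 to 14.52 in occluded, 13.88 to 14.10 in open and 13.81 to 14.07 in normal replicates. It was thus higher on the occluded side. The brighter probe of Omp, the olfactory marker protein, was saturated on 26 of 27 arrays and gave no direction, and its dimmer probe differed by -0.02. The other 8 markers all lay above 0 in occluded vs open, from 0.24 for Gng13 to 0.86 ± 0.24 (SE) for Ric8b, and none passed. Kirrel3 (0.96) and the Efna5 probes (0.90 and 0.88) lay above this range, within the error of Ric8b. In occluded vs normal all 8 again lay above 0, from 0.17 for Adcy3 to 0.91 ± 0.52 for Ano2, with Gnal next at 0.75 ± 0.24. Kirrel3 (0.88) and the first Efna5 probe (0.75) lay below the value of Ano2, and the second Efna5 probe (0.94) lay above it. Kirrel2 and Pcdh10 had the opposite sign. For 10 of 12 markers of immature olfactory neurons the mean ran from 12.10 to 12.45 in occluded, 12.29 to 12.62 in open and 12.47 to 12.66 in normal replicates, and 8 of 10 lay below 0. For the 6 markers of horizontal basal cells it ran from 9.46 to 9.73 in occluded, 9.85 to 10.04 in open and 9.72 to 9.84 in normal replicates, and 6 of 6 lay below 0, none of which passed. The occluded and open ranges overlapped for basal progenitors, sustentacular cells, vomeronasal neurons, ensheathing glia, brain and respiratory epithelium, whose median differences lay between -0.11 for glia and 0.13 for vomeronasal neurons. Of the vomeronasal markers, the channel gene Trpc2 differed by 0.84 ± 0.17 (SE, limma adjusted p = 0.16) and H2-M9 by 0.76 ± 0.21 (adjusted p = 0.41). Meis2 differed by 0.19 and Gnao1 by 0.13, while Gnai2 differed by -0.43 and H2-M10.2 by -0.14. Dimmer probes gave -0.21 for Meis2, 0.14 for Gnao1 and 0.0016 for Gnai2, so the signs of Meis2 and Gnai2 depended on the probe. Vmn2r1 differed by -1.19 and lay below the noise limit on 26 of 27 arrays. In the marker lists 1 gene of basal progenitors and 1 of vomeronasal neurons lay below the noise limit on most arrays. The part of these markers in the members' differences was not tested, and in whole mucosa fewer cells of a type and less RNA per cell cannot be told apart.

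Among 10248 other named genes at or above the median level, those whose values over the 9 biological replicates ran most like the members' were looked up by Pearson's r. The 9 values come from 3 groups and 2 of these share mice, so r is a description. For Kirrel2 these were Fam110a (r = 0.970), Cadps2, a factor of vesicle priming (0.952), S100a5, a calcium-binding protein of olfactory neurons (0.942), and the synaptic scaffold gene Dlg2 (0.937). Their occluded minus open differences were -0.43, -0.42, -2.07 and -1.07, of which that of S100a5 passed (limma adjusted p = 0.0095). S100a5 was saturated on 5 of 9 open and 7 of 9 normal arrays and on 0 of 9 occluded arrays, so its difference is a lower limit in size. For Pcdh10 they were Lst1 (r = 0.985), Pcp4l1, a relative of a calmodulin-binding protein (0.977), Gnptg (0.964) and Trim45 (0.955), with differences of -0.82, -1.32, -0.64 and -0.88, and Pcp4l1 passed (adjusted p = 0.017).

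For Kirrel3 the nearest were the myeloid transcription factor gene Spi1 (r = 0.968), Sh3glb2 (0.962), Zfand2a (0.958) and the pseudouridine synthase gene Trub1 (0.953). Their differences were 1.16, 0.61, 0.46 and 1.80, and Spi1 (limma adjusted p = 0.023) and Trub1 (adjusted p = 0.010) passed. For the brighter Efna5 probe they were the odorant receptor gene Olfr912 (r = 0.959), the cell cycle factor gene E2f1 (0.941), Rab5if (0.938) and the transcription factor gene Ikzf2 (0.922), with differences of 0.73, 0.49, 0.083 and 0.38, none of which passed. Among the members, with Efna5 read by its brighter probe, r was 0.824 for Kirrel2 with Pcdh10 and 0.891 for Kirrel3 with Efna5. Between these 2 sets it ran from -0.784 for Kirrel2 with Efna5 to -0.911 for Pcdh10 with Kirrel3. On each member probe the occluded values lay outside the others, so the signs of r restate the group differences.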

How the data were processed

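Amplified, Cy5-labelled RNA was hybridized to 1-colour arrays, per the labels' protocols. The authors deposited a linear intensity for each probe. Scanner, background method and normalization: not given in the sources used here. Per array, 1.45% to 3.93% of intensities did not exceed 0, so background had been subtracted. Array medians ran from 123 to 274 and noise limits from 11.6 to 24.1, with 8.57% to 19.8% of probes below the limit. The number of samples, 3 a group, limits the precision.

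Intensities that did not exceed 0 were raised to 0.912, the lowest one above 0. After log2, array medians differed by 1.15, so arrays were quantile normalized, and arrays a to c of a replicate were averaged. limma 3.58.1 (run in R 4.3.3 beside statmod 1.5.0) was fitted to the 3 groups over all 29922 probes, with a random block for each mouse (correlation 0.389), two-sided, with Benjamini-Hochberg adjustment; the script was tested on simulated data. Adjusted p-values come from this fit. Both sides were taken from the same mice, per the design text. Equal numbers in the titles were read as 1 mouse. The correlation of deviations in the 3 pairs of equal number (0.516, -0.0044 and 0.142) does not settle whether they are. Occluded and open replicates of unequal number gave from -0.426 to 0.386. Normal mucosa, from other mice, gave 0.394 with open and 0.353 with occluded at number 1. At numbers 2 and 3 it gave from 0.0015 to 0.104. For Kirrel2 against Kirrel3 no p is given, since it is a score over members chosen with results known. 8902 probes are unnamed here. Symbols come from the array's platform annotation, updated through RefSeq synonyms (16595 of 16637 symbols found). Of the members, 3 of 4 matched the promoter table.

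Named genes are the member probes, list members that passed or else up to 3 with the smallest p, and the 4 genes most alike to each member, leaving out predicted transcripts. Epha5, Kirrel, Nphs1, Pcdh8, Pcdh9, Pcdh17, Ric8b, Gng13, Ano2, Trpc2, H2-M9, Meis2, Gnao1, Gnai2, H2-M10.2, Vmn2r1 and Omp are named outside this rule. So are the further probes of Epha7, Cntn4, Sema7a, Creb1, Gnas, Gnal, Meis2, Gnao1 and Gnai2. Members and lists were chosen with earlier results of these data known. Alternatives covered the block, normalization, floor, offset, dim probes, averaging of arrays, the prior, the groups fitted together and the removal of each replicate.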

Additional observations from a re-analysis of the deposited data

How the results depend on the processing

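Over the alternatives run, the member probes kept their sign in occluded vs open (20 of 20 each) and in occluded vs normal (19 of 19 each); the threshold was the unstable part. The 2 member calls and 66 probe calls in occluded vs open became 0 and 0 under a replicate block fixed by pair, 0 and 2 with the title number as a fixed replicate block over all groups, 0 and 3 with no replicate block, 0 and 14 with 2 groups in the fit, 0 and 0 without normalization, 0 and 37 with median centring, 1 and 42, 0 and 22 or 0 and 21 with arrays a, b or c alone, and 4 and 102 with a trended, robust prior. They became 3 and 89 with an offset of 50 and 3 and 87 after dropping the dimmest 30% of probes, where Kirrel3 joined. With a floor at 16 they were 2 and 68, with Kirrel2 lost (adjusted p = 0.10) and Kirrel3 gained (adjusted p = 0.044). With the median of arrays 1 member was called. Without single replicates there were 0 to 1 member and 0 to 49 probe calls. Under the replicate block fixed by pair the adjusted p was 0.45 for Kirrel2 and 0.46 for Pcdh10.

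In occluded vs normal 1 member (Pcdh10) in place of 0 was called with an offset of 50 (18 probes in place of 2), after dropping the dimmest 30% (13) and with the trended prior (26). Probe calls were 0 with the number as a block, with 2 groups, without normalization and with a floor at 16, 5 with the median of arrays, 5 and 10 with arrays a and b alone, and 0 to 1 without single replicates. In open vs normal, arrays c alone gave 2 calls.

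The small open minus normal differences turned sign. Without normalization they were 0.0027 for Kirrel2, 0.016 for Kirrel3 and 0.074 for Pcdh10; with the median of arrays 0.011 for Pcdh10; with arrays a alone 0.023 for Kirrel3; with arrays b alone 0.18 for Kirrel2, 0.046 for Kirrel3, 0.012 for Pcdh10, -0.036 for the second Efna5 probe and 0.14 for Kirrel2 minus Kirrel3; with arrays c alone 0.14 for the first Efna5 probe. Without single replicates they ran from -0.30 to 0.20 for Kirrel2, -0.16 to 0.027 for Kirrel3, -0.14 to 0.042 for Pcdh10, -0.076 to 0.16 for the second Efna5 probe and -0.31 to 0.35 for Kirrel2 minus Kirrel3. The cause of these changes was not tested.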
